A study of Mus musculus and Homo sapiens with 18 samples.

Results

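The 9 genes described here encode proteins of central nervous system myelin (Mbp, Mag, Mog, Cnp, Mobp and Cldn11) and transcription factors of the oligodendrocyte lineage (Olig1, Olig2 and Sox10). They were chosen by name, and all 9 were found in each of the 3 count tables, among 46882 genes in the lens table, 54838 in the table of lens progenitor-like cells and 60880 in the table of human lens epithelial cells, where the symbols are in upper case. RNA was sequenced from 18 libraries, 3 in each of 6 groups, to compare cells with and without the RNA-binding protein Quaking (gene Qk in mouse, QKI in human). Oligodendrocytes wrap axons in myelin, a stack of compacted membrane rich in cholesterol and galactolipids. Olig2 and Olig1 are already expressed in dividing oligodendrocyte precursors, as is Sox10, which later drives the myelin genes, and Mbp, Mobp, Mag, Mog and Cldn11 rise as the cell matures. Quaking binds RNA in oligodendrocytes and is best known from the quaking mouse, which fails to form compact myelin.

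The lens groups were both Nestin-CreERT2 mice of the C57BL/6 strain, either QkL/+ (Ctrl) or QkL/L (Qk-iCKO). The loxP sites flank exon 2 of Qk, both groups received tamoxifen at postnatal days 7 and 8, and lenses were taken at postnatal days 17 to 19. The Ctrl mice therefore carried the Cre transgene and 1 floxed allele, and Cre was driven by the Nestin promoter, which is also active in neural stem cells. The lens progenitor-like cells (NLPCs) were made from neural stem cells of whole brains taken at postnatal day 1, with Noggin at 100 ng/ml for 6 days and then bFGF at 100 ng/ml with BMP4 and BMP7 at 20 ng/ml each for 12 days. They are labelled wild type (WT) or Qk-/-, and deletion was induced with 4-hydroxytamoxifen. The donor mice named by the study were Nestin-CreERT2 with QkL/L, and it names no other genotype for the WT cells. It does not say whether the WT cells received the drug. If they did not, the drug and the deletion cannot be told apart. HLE-B3 is an immortalised human lens epithelial line, compared as WT and as QKI KO made with a lentiviral CRISPR vector and puromycin selection. The labels do not say whether the NLPC and HLE-B3 libraries came from separate cultures, and the study states only in general terms that its cell line work used independent replicates, so p-values there measure the spread between these libraries, which may be in part technical.

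Total counts were 10319320 to 16425331 per lens library, 28154202 to 68243360 per NLPC library and 69190864 to 81384471 per HLE-B3 library. Gene-level RNA counts of the targeted gene did not follow every label. Counts of QKI fell by 1.34 on the log2 scale in QKI KO libraries, those of Qk had a log2 difference of −0.31 in Qk-iCKO lenses (adjusted p = 0.20), and those of Qk were higher by 0.41 in the NLPC libraries labelled Qk-/- (adjusted p = 0.027). A gene-level count includes every exon outside the deleted part. Some libraries stood apart. Lens Qk-iCKO 1 had 1050 counts of the pigment cell gene Dct against 18 to 65 in the other 5 lenses, 10 retina genes summed to 0.949 to 194 TPM, a level scaled to gene length and library size, in the Ctrl lenses, highest in Ctrl 2, and in NLPC library Qk-/- 2 the genes with at most 10 counts in every WT library summed to 5340 CPM, counts scaled to library size, against 733 and 969 in the other libraries labelled Qk-/-. The lens markers were mixed in NLPCs. Of the 12 genes of the lens list, 4 had at least 10 counts in every WT library and 3 in every Qk-/- library, with Cryab at 342 to 4324 and Prox1 at 1375 to 3463 counts, while Foxe3 had at most 1 count and Cryaa at most 18. The list summed to 97.3 to 132 TPM in WT and 42.1 to 68.3 TPM in Qk-/- libraries, and the 10 astrocyte genes of the marker list to between 5130 and 7990 TPM. All 12 genes of the lens list but 1 could be tested in the lens itself, where they summed to 127000 to 135000 TPM in Ctrl and 105000 to 116000 TPM in Qk-iCKO libraries. In HLE-B3 cells CRYAA was at 0 in all 6 libraries and CRYAB, which many cells under stress also express, had 34398 to 74368 counts.

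Short stretches of the 3′ UTRs of these genes are shown first, because Quaking is known to bind RNA at a response element with the core ACTAAC or ACTAAT (written as DNA) followed after 1 to 20 bases by TAAC or TAAT. The whole element was not found in the searched 3′ UTR of any of the 9 genes in either species, while 7.89% of 21875 mouse and 10.4% of 19798 human protein-coding genes hold it. The core alone was found in Mobp, Olig2, MOBP and CLDN11, printed here, and in Mbp (2 places) and MBP (1 place). Capitals mark the core, each line is 30 bases read 5′ to 3′ on the transcript strand, and coordinates are GRCm38 for mouse and GRCh37 for human genes.
Mobp, chr9:120176047-120176076, + strand: cagttatctggcACTAACaagaactcaata
Olig2, chr16:91227681-91227710, + strand: ggaagtctaaaaACTAACtttccggtgtac
MOBP, chr3:39556310-39556339, + strand: agggccataggaACTAACcccgatcctcac
CLDN11, chr3:170151653-170151682, + strand: catatgcttcaaACTAACacatttttaaag
CLDN11, chr3:170152445-170152474, + strand: ttcaaataaaatACTAATttcattagctga
Only the transcript strand was searched, since the element is one of RNA, and only with the core first. For each gene the 3′ UTR was that of its longest annotated protein-coding transcript. Other transcripts were not searched, so an element in them would have been missed. Among genes with a 3′ UTR within 20% of the same length, 60.7% held the core for Mobp, 55.5% for MOBP, 34.6% for Olig2, 43.8% for CLDN11, 70.1% for Mbp and 71.2% for MBP. A match of 6 letters is a description of the sequence and not a binding site, and neither Cnp nor CNP held the core.

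In NLPCs Olig1, Olig2 and Cnp were abundant, while Sox10 and the other myelin genes of the set were close to the detection limit. Per length, Olig1 stood at 653 ± 160 TPM (SD, n = 3) in WT cells, Olig2 at 406 ± 98.1 TPM and Cnp at 121 ± 24.8 TPM. The other 6 genes stood between 0.0341 TPM for Mag and 0.349 ± 0.30 TPM for Sox10, with Cldn11, Mog, Mbp and Mobp between them, and neighbours in that lower group differed by less than the larger of their SDs. The gap between Cnp and Sox10 was wider than the spread of either. In lenses and HLE-B3 cells the order was another, with Cnp highest at 0.253 ± 0.104 TPM in Ctrl lenses and CNP highest at 35.4 ± 2.32 TPM in WT HLE-B3 cells, and OLIG1 and SOX10 at 0 in all 6 HLE-B3 libraries.

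**Figure D1:**
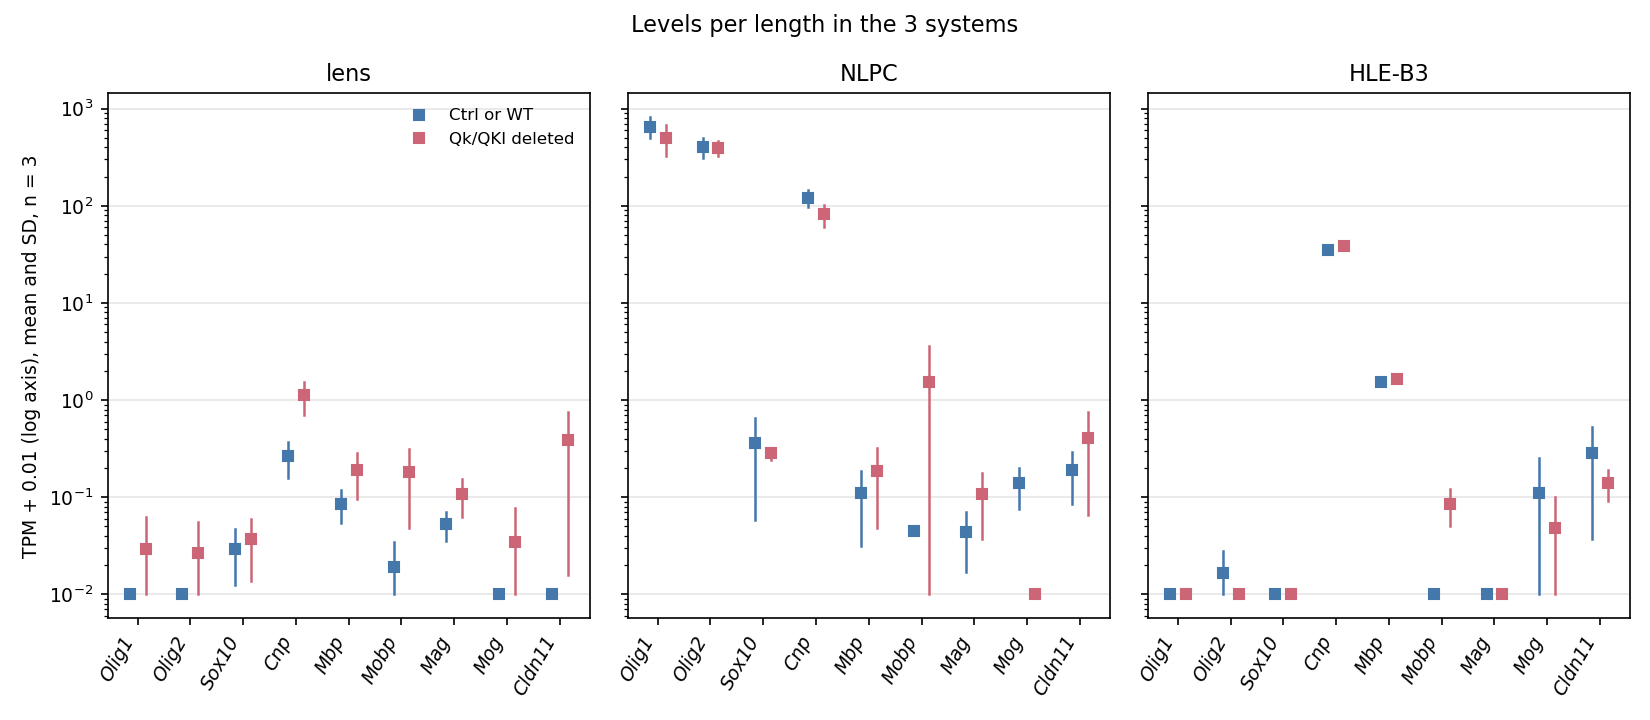
Mean level of each of the 9 genes in TPM plus 0.01 on a log axis, with the SD of 3 libraries as a line (cut at 0), in Ctrl or WT libraries (blue) and in libraries labelled as Qk or QKI deleted (red). Olig1, Olig2 and Cnp are high in NLPCs, Cnp and Mbp are the highest of the 9 in HLE-B3 cells, and all 9 are low in the lens.

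Olig1 and Olig2, basic helix-loop-helix factors that specify the lineage, had no change past the threshold in NLPCs. Olig2 had 28774, 17233 and 30699 counts in the WT libraries and 24887, 8977 and 23217 in those labelled Qk-/-. Scaled to library size these are 421, 407 and 447 CPM against 446, 307 and 392 CPM, so the groups overlap. The log2 fold change was −0.16 (standard error 0.135, 95% interval −0.47 to 0.15, adjusted p = 0.502 by edgeR's quasi-likelihood test, as for each adjusted p that follows). Olig1 had 528, 579 and 655 CPM in WT and 470, 246 and 517 CPM in Qk-/- libraries. Every library labelled Qk-/- lay below every WT library, as for 10% of the 42345 genes with at least 1 count, and library Qk-/- 2 was the lowest. The log2 fold change of Olig1 was −0.52 (95% interval −1.08 to 0.05, adjusted p = 0.228), and over the alternative settings its adjusted p ranged from 0.0392, with every gene of at least 1 count tested, to 0.527. In bulk RNA, fewer cells of a type and less RNA per cell cannot be told apart, here or in any result that follows.

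Sox10, the factor that activates myelin genes together with Myrf, had 6, 21 and 53 counts in WT NLPCs and 15, 10 and 20 in Qk-/- NLPCs. The groups overlap, and by CPM the WT libraries alone span the whole range. The log2 fold change was −0.51 (95% interval −2.60 to 1.57, adjusted p = 0.755), and without WT library 3 it was 0.12. In the lens, none of the 3 lineage factors exceeded 1 count in any library. Olig1 and Olig2 each had 1 count in Qk-iCKO 1 and 0 in the other 5 lenses, and a floor of 3 counts corresponds to 0.184 to 0.303 CPM in these libraries. In HLE-B3 cells OLIG1 and SOX10 were at 0 throughout and OLIG2 had 1 count in 1 WT library, where 3 counts correspond to 0.0367 to 0.0434 CPM. Expression of the lineage factors was thus not detectable at this depth in either.

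**Figure D2:**
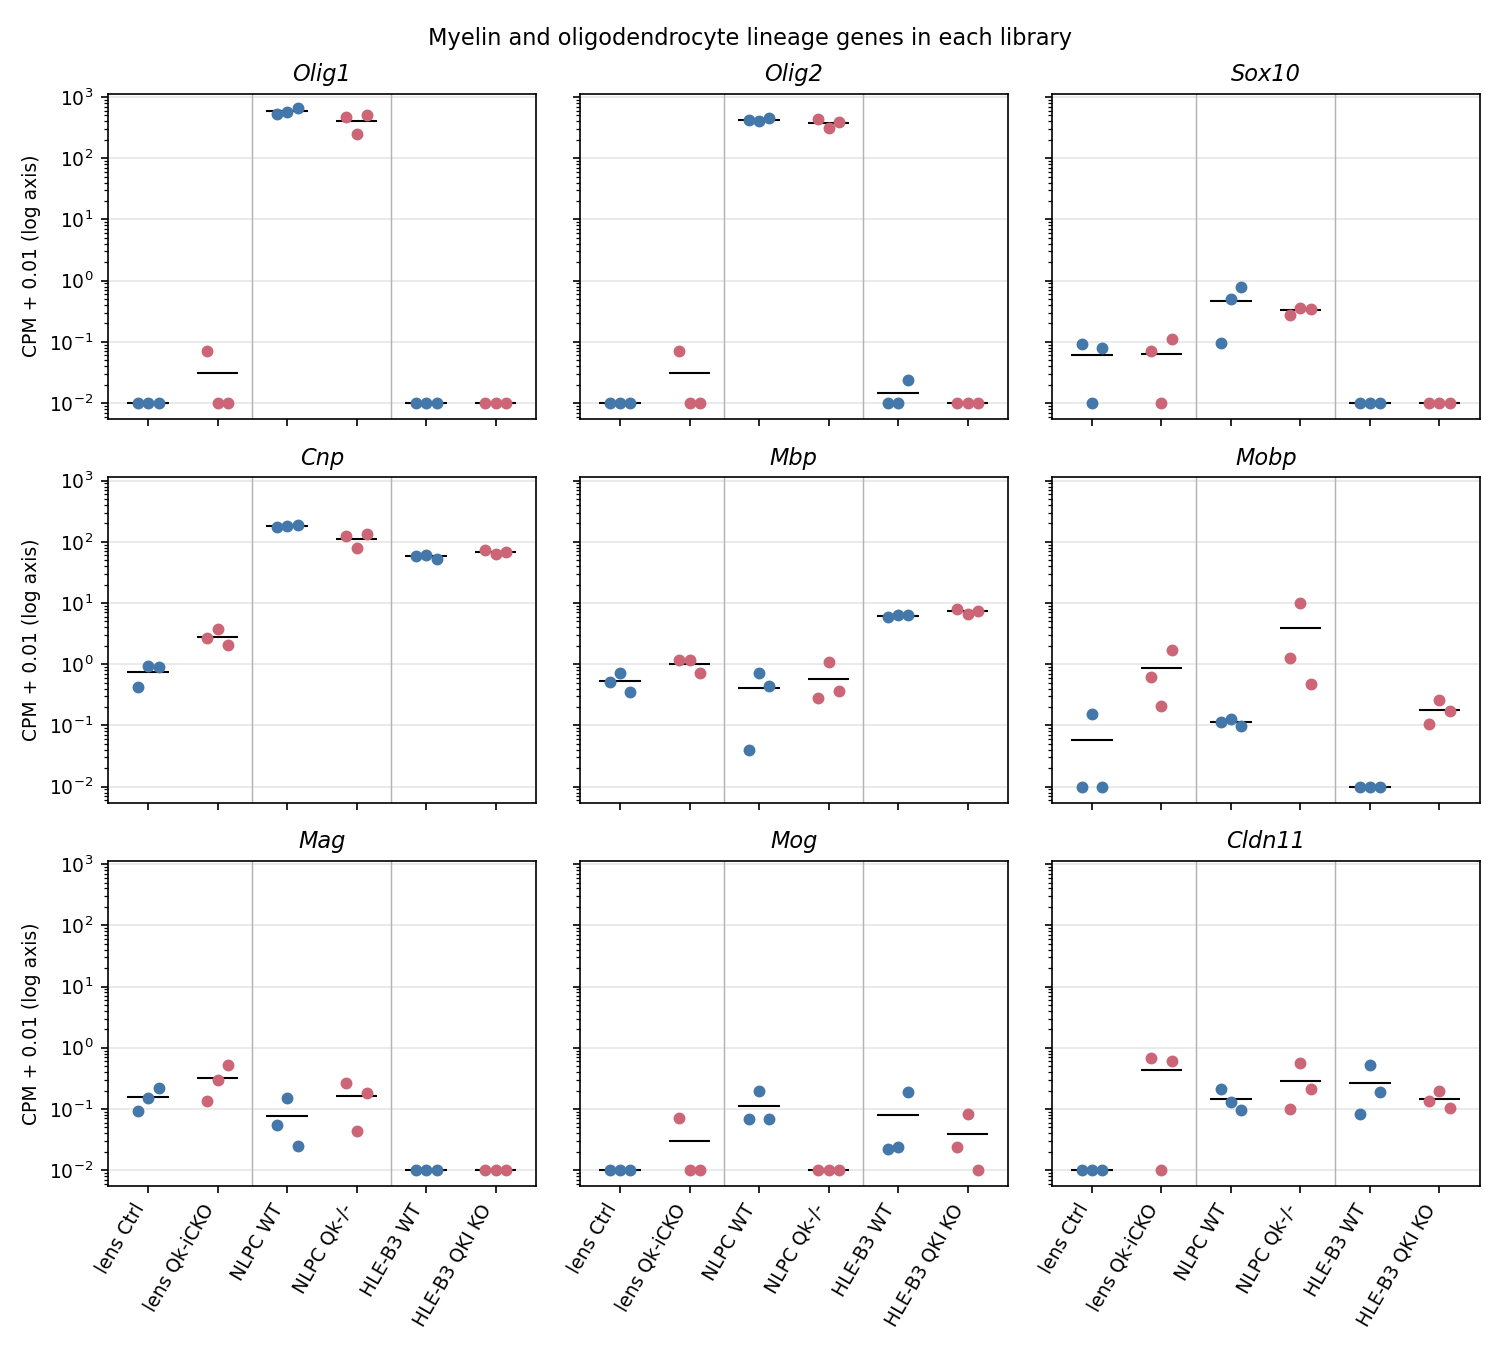
CPM plus 0.01 (log axis) of each of the 9 genes in every library of the 6 groups, with points for libraries in the order of their replicate numbers and a bar at the mean; the lowest points are libraries with 0 counts. Mobp lies higher in every deleted library than in every control library of its system, while Olig1 and Olig2 are at or near 0 outside the NLPCs.

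Mobp, which encodes myelin-associated oligodendrocytic basic protein, a small basic protein of compact myelin, had higher values in every deleted library than in every control library of all 3 systems, always at low counts. In NLPCs it had 7, 5 and 6 counts in WT and 71, 293 and 28 counts in Qk-/- libraries. These are 0.102, 0.118 and 0.0873 CPM against 1.27, 10 and 0.472 CPM, so the groups do not overlap and library Qk-/- 2 is far above the other 2. With so few counts in WT, Mobp passed the filter only through the Qk-/- libraries, where it was high, and its call depends on that selection. The log2 fold change was 5.22 (standard error 1.17, 95% interval 2.52 to 7.93, adjusted p = 0.0286), where 4.74% of the 20371 genes tested were called higher. Without library Qk-/- 2 it was 3.08 (adjusted p = 0.0178). With WT library 1, 2 or 3 left out, the change stayed between 5.09 and 5.29 but the adjusted p was 0.128, 0.113 and 0.149. The gene lies on chromosome 9 of GRCm38 from 120149707 to 120181484.

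In the lens, Mobp had 0, 2 and 0 counts in Ctrl and 10, 2 and 17 counts in Qk-iCKO libraries. On the CPM scale every Qk-iCKO library was above every Ctrl library, with Qk-iCKO 2 at 0.194 CPM only just above Ctrl 2 at 0.143 CPM, both from 2 counts. The ratio of summed counts per summed effective library size was 16.1 (95% interval 4.08 to 140, counting error only), and the gene did not pass the filter on low counts. Higher values in every Qk-iCKO than in every Ctrl library were found in 13% of the 24894 genes with at least 1 count. In HLE-B3 cells MOBP had 0 counts in all 3 WT libraries and 7, 17 and 12 in the QKI KO libraries, a mean of 0.168 CPM, at least 4.22-fold higher than a floor of 3 counts per WT library. It too was below the filter. Of 36791 genes with at least 1 count, 12.6% were higher in every QKI KO library. Of 4695 genes with counts in QKI KO libraries only, 14 had at least 7 in every QKI KO library, MOBP among them. That limit of 7 is the lowest count of MOBP itself and was set after the values were seen, so MOBP met it by construction. The same separation was seen in 9.42% of the 42345 NLPC genes with at least 1 count. When every gene with at least 1 count was tested, Mobp was called higher in the lens and in HLE-B3 cells as well.

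Cnp, which encodes the myelin enzyme 2′,3′-cyclic nucleotide phosphodiesterase, was the most abundant myelin gene of the set in all 3 systems, and it is also expressed outside oligodendrocytes. Deletion went with higher Cnp in the lens and in HLE-B3 cells, and with lower Cnp in NLPCs. In NLPCs it had 12079, 7803 and 12901 counts in WT and 6896, 2350 and 7980 in Qk-/- libraries. As CPM these are 177, 184 and 188 against 124, 80.3 and 135, with no overlap and with library Qk-/- 2 lowest. The mean of the Qk-/- libraries was 61.8% of the WT level by the fitted change, a log2 fold change of −0.70 (standard error 0.175, 95% interval −1.10 to −0.29, adjusted p = 0.042), where 5.96% of all genes tested were called lower. Lower values in every Qk-/- library than in every WT library were found in 10% of genes with at least 1 count. Without library Qk-/- 2 the change was −0.50 (adjusted p = 0.0012). Without WT 1, WT 2, WT 3 or Qk-/- 1 it ranged from −0.77 to −0.68 and the adjusted p from 0.104 to 0.19.

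In the lens Cnp was the only 1 of the 9 genes that passed the filter, and it was called higher. It passed through the Qk-iCKO lenses, the group where it was high, and the call depends on that selection. The mouse gene lies on chromosome 11 of GRCm38 from 100574904 to 100591729. It had 5, 13 and 13 counts in Ctrl and 43, 39 and 20 counts in Qk-iCKO lenses, or 0.414, 0.927 and 0.892 CPM against 2.64, 3.77 and 2.02 CPM. The groups do not overlap, as for 13% of genes with at least 1 count, which were higher in every Qk-iCKO lens. The log2 fold change was 1.89 (standard error 0.404, 95% interval 0.94 to 2.83, adjusted p = 0.0243), where 8.38% of the 12201 genes tested were called higher and 3.88% lower. With scaling to total counts alone, which moved the median log2 change of all genes from 0.01 to 0.29 and the share of calls that are higher from 68.4% to 86.9%, it was 2.16. The call was lost without Ctrl 1, 2 or 3 (adjusted p = 0.0864, 0.0696 and 0.0756), without Qk-iCKO 2 (adjusted p = 0.0676), and without Qk-iCKO 1 and Ctrl 2 together (log2 fold change 2.11, adjusted p = 0.0882).

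In HLE-B3 cells CNP had 57.8, 61.8 and 53.2 CPM in WT and 73.7, 62.8 and 68.9 CPM in QKI KO libraries. Every QKI KO library was above every WT library, as for 12.6% of genes with at least 1 count, the closest pair being WT 2 and QKI KO 2. The log2 fold change was 0.25 (standard error 0.0746, 95% interval 0.09 to 0.41, adjusted p = 0.0163), in a table where 17% of 19049 genes were called higher and 16.3% lower. The call was lost on unadjusted library totals (adjusted p = 0.0528), without WT 3 (0.0694) and without QKI KO 1 (0.112). The 50 genes nearest to CNP on chromosome 17 had a median log2 change of 0.26, close to that of CNP itself. DNAJC7, which overlaps the end of CNP on the opposite strand, had a log2 change of 0.21 (adjusted p = 0.00532), and its mouse counterpart Dnajc7 had 0.06 in NLPCs (adjusted p = 0.69) and −0.38 in the lens (adjusted p = 0.233). The reads were stranded, but the strand setting of the counting is not given in the sources used here.

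The change of Cnp differed between lens and NLPC. In a joint fit of the 12 mouse libraries the change in NLPCs less that in the lens was −2.49 (standard error 0.387, adjusted p = 0.0023 by edgeR), and it stayed past the threshold in all 17 alternative settings. Of 16675 genes tested in this way 8.53% were called, and Cnp was the only one of the 9. For Mobp the same difference was 1.29 with a standard error of 2.24 (adjusted p = 0.797), and for Mbp −0.36 with a standard error of 1.27 (adjusted p = 0.926).

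Mbp, which encodes a major protein of compact myelin, was called in no system, and in the lens it was not tested. The same gene also produces Golli transcripts outside oligodendrocytes, which a gene-level count does not separate. In NLPCs Mbp had 2, 30 and 30 counts in WT and 15, 31 and 21 counts in Qk-/- libraries. These groups overlap, and the change was 0.51 on the log2 scale (95% interval −2.02 to 3.04, adjusted p = 0.802). In the lens it had 6, 10 and 5 counts in Ctrl and 19, 12 and 7 in Qk-iCKO libraries, which overlap by CPM and were below the filter. In HLE-B3 cells MBP stood at 5.97, 6.39 and 6.28 CPM in WT and at 8.05, 6.57 and 7.41 CPM in QKI KO libraries. Here the groups do not overlap, with WT 2 and QKI KO 2 close to each other. Of genes with at least 1 count, 12.6% were likewise higher in every QKI KO library. The log2 fold change of MBP was 0.24 (95% interval −0.05 to 0.53, adjusted p = 0.201). The 50 nearest genes on chromosome 18 had a median of −0.57.

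Mag and Mog, which encode surface proteins of the innermost and outermost myelin membranes, were at the edge of detection. Mog had 4, 8 and 4 counts in WT NLPCs and 0 in all 3 libraries labelled Qk-/-. The groups do not overlap, as for 10% of genes with at least 1 count, which were lower in every Qk-/- library. The ratio of counts was 0 with an upper 95% limit of 0.322 (counting error only), but the gene was below the filter. Mag had 3, 6 and 1 counts in WT and 14, 1 and 10 in Qk-/- NLPCs, with overlap. In the lens Mag had 1 to 3 counts in Ctrl and 2 to 5 in Qk-iCKO libraries, and Mog had 1 count in Qk-iCKO 1 alone. In HLE-B3 cells MAG was at 0 in all 6 libraries, and MOG had 1, 1 and 13 counts in WT and 1, 5 and 0 in QKI KO libraries.

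Cldn11, the claudin that forms the tight junctions of myelin, was not found in any Ctrl lens and had 11, 0 and 6 counts in Qk-iCKO lenses. Qk-iCKO 2 was at 0 like the Ctrl lenses, so the groups overlap. In NLPCs it had 14, 5 and 6 counts in WT and 5, 16 and 12 in Qk-/- libraries (log2 fold change 0.99, 95% interval −1.39 to 3.36, adjusted p = 0.583). In HLE-B3 cells CLDN11 had 6, 38 and 13 counts in WT and 9, 13 and 7 in QKI KO libraries (log2 fold change −0.92, 95% interval −2.74 to 0.90, adjusted p = 0.468), and without WT 2 the change was 0.11. All these groups overlap, and neither change passed the threshold.

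The rest of the pathway was read from 12 other lineage genes and 16 other myelin genes. In NLPCs, 4 of the 10 lineage genes tested were lower, none was higher and 6 were not called, with a median log2 change of −0.62 beside 0.04 for all genes tested. Of all genes tested in NLPCs, 5.96% were called lower and 4.74% higher. Gpr17, a receptor of committed precursors, fell by 2.23 on the log2 scale (adjusted p = 0.0053), from 124 ± 33.4 CPM (SD, n = 3) to 26.4 ± 10.9 CPM. Pdgfra, the growth factor receptor of precursors, fell by 1.26 (adjusted p = 0.0011), Ptprz1, a receptor phosphatase also found in astrocytes and neural stem cells, by 0.90 (adjusted p = 0.00145), and Cspg4, the NG2 proteoglycan, by 0.77 (adjusted p = 0.0292). The first 3 of these calls held with each library left out in turn, while that of Cspg4 held only without Qk-/- 2, with an adjusted p of 0.052 to 0.159 without each of the other 5.

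Of the 13 other myelin genes tested in NLPCs, 3 were lower, 1 was higher and 9 were not called, and the median log2 change was 0.06. Cmtm5 fell by 1.10 (adjusted p = 0.00737) and Pllp, plasmolipin, by 1.90 (adjusted p = 0.0414). Nfasc, a cell adhesion gene of axons and of paranodal glia, rose by 0.85 (adjusted p = 0.0164). The call of Cmtm5 was lost without WT 1 or WT 3 (adjusted p = 0.0513 and 0.0563). That of Nfasc was lost without WT 1, WT 3, Qk-/- 1 or Qk-/- 3 (adjusted p = 0.0578 to 0.0782), and that of Pllp without each library except Qk-/- 2 (0.0908 to 0.19) and on unadjusted library totals (0.0541). The genes not called in the lists of 12 and 16 had log2 changes from −0.98 (Ugt8a) to 1.41 (Ermn).

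Markers of other neural cells moved in the same libraries, where 5.96% of all genes tested were called lower and 4.74% higher. Of the 8 neural stem cell genes 2 were lower, and their summed level was 3280 to 4630 TPM in WT and 3810 to 4180 TPM in Qk-/- libraries. Of 10 astrocyte genes, 4 were lower and 1 was higher in NLPCs labelled Qk-/-, with log2 changes of −1.66 for Slc1a3, −1.38 for Gfap and 0.74 for Aqp4. Their summed level was 5130 to 7510 TPM in WT and 5240 to 7990 TPM in Qk-/- libraries, ranges that overlap. The 8 neuron genes held 3 calls, all higher, and their summed level was 186 to 266 TPM in WT and 283 to 312 TPM in Qk-/- libraries. The summed level of the 9 genes described here was 872 to 1410 TPM in WT and 689 to 1140 TPM in Qk-/- libraries. These ranges overlap on the TPM scale, which does not use the library scaling of the tests (TMM). By CPM, which does, Olig1 and Cnp were lower in every Qk-/- library than in every WT library, while Olig2 overlapped. Of all genes with at least 1 count, 10% were lower in that way. Of the 10 leukocyte genes, 5 could be tested and were not called (edgeR, adjusted p from 0.191 for Cd68 to 0.657 for Ptprc, none with an unadjusted p under 0.05), and the summed level of the list was 8.66 to 11.2 TPM in WT and 14.4 to 18.2 TPM in Qk-/- libraries, ranges that do not overlap. Cd68 had 184 to 327 counts and C1qa was at 0 in all 6 NLPC libraries. The part of the other cell types in the changes of Cnp and Mobp was not tested.

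In the lens 6 of the 12 other lineage genes were tested and 1, Cspg4, was higher, where 8.38% of all genes tested were called higher. The 1 myelin gene tested, Nfasc, had a log2 change of 0.03. Cspg4, which marks pericytes as well as oligodendrocyte precursors, had 12, 6 and 9 counts in Ctrl and 51, 19 and 21 counts in Qk-iCKO lenses. The groups do not overlap, as for 13% of genes with at least 1 count, which were higher in every Qk-iCKO lens. The log2 fold change of Cspg4 was 1.81 (adjusted p = 0.0278). Like Cnp, Cspg4 passed the filter through the Qk-iCKO lenses, the group where it was high. The call was lost without Ctrl 1, 2 or 3 (adjusted p = 0.0563, 0.104 and 0.109), without Qk-iCKO 1 (0.0764) and without Qk-iCKO 1 and Ctrl 2 together (0.161). The lineage genes not called had changes from 0.37 (Sox8) to 1.33 (Ptprz1).

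Leukocyte genes moved with the rise of Cnp in the lens. Of the 10 leukocyte genes 8 were tested and all 8 were higher in Qk-iCKO lenses, by log2 changes of 3.81 to 6.70. Of all genes tested in the lens, 8.38% were called higher. At least 10 counts in every library of a group were found for 0 of the 10 in Ctrl and 8 in Qk-iCKO lenses. The 8 genes thus passed the filter through the group where they were high, and the count of calls depends on that selection. The summed level of the 10 genes was 1.41 to 3.16 TPM in Ctrl and 122 to 170 TPM in Qk-iCKO libraries. C1qc, a complement gene of macrophages, had 5, 1 and 5 counts in Ctrl and 384, 356 and 296 counts in Qk-iCKO lenses, so that every Qk-iCKO lens was far above every Ctrl lens. The summed level of 8 melanocyte genes was 7.30 to 9.61 TPM in Ctrl and 6.86 to 91.7 TPM in Qk-iCKO lenses. The upper end came from Qk-iCKO 1, with 1050 counts of Dct against 65 and 21 in Qk-iCKO 2 and 3. Of the 5 melanocyte genes tested 0 were higher and 1, Mitf, was lower (log2 change −0.93, adjusted p = 0.0487), where 3.88% of all genes tested were called lower. Of the Schwann cell genes, 5 of 10 were tested, Erbb3 was higher (log2 change 3.17) and Prx, which lens fiber cells also express, was lower (−2.12). Erbb3 too passed the filter through the Qk-iCKO lenses. The 9 genes described here summed to 0.262 to 0.516 TPM in Ctrl and 1.46 to 2.97 TPM in Qk-iCKO lenses. The part of these cell types in the change of Cnp was not tested.

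In HLE-B3 cells 7 of the other lineage genes and 4 of the other myelin genes were tested. Of all genes tested in these cells, 17% were called higher and 16.3% lower, and the 4 calls in these lists are near that share. CSPG4 (log2 change −0.49, adjusted p = 6.94e-06), MYRF (−1.16, adjusted p = 1.95e-06), which encodes the myelin regulatory factor, and TSPAN2 (−0.66, adjusted p = 0.00194) were lower. UGT8, which makes the galactolipid galactosylceramide, was higher (1.02, adjusted p = 0.000285). These 4 calls held in every alternative setting run. Of the genes not called, PDGFRA had a change of −0.50 and BCAS1 one of 0.85. SOX10, at 0, lies within POLR2F on the opposite strand, which had 1870 to 2616 counts.

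**Figure D3:**
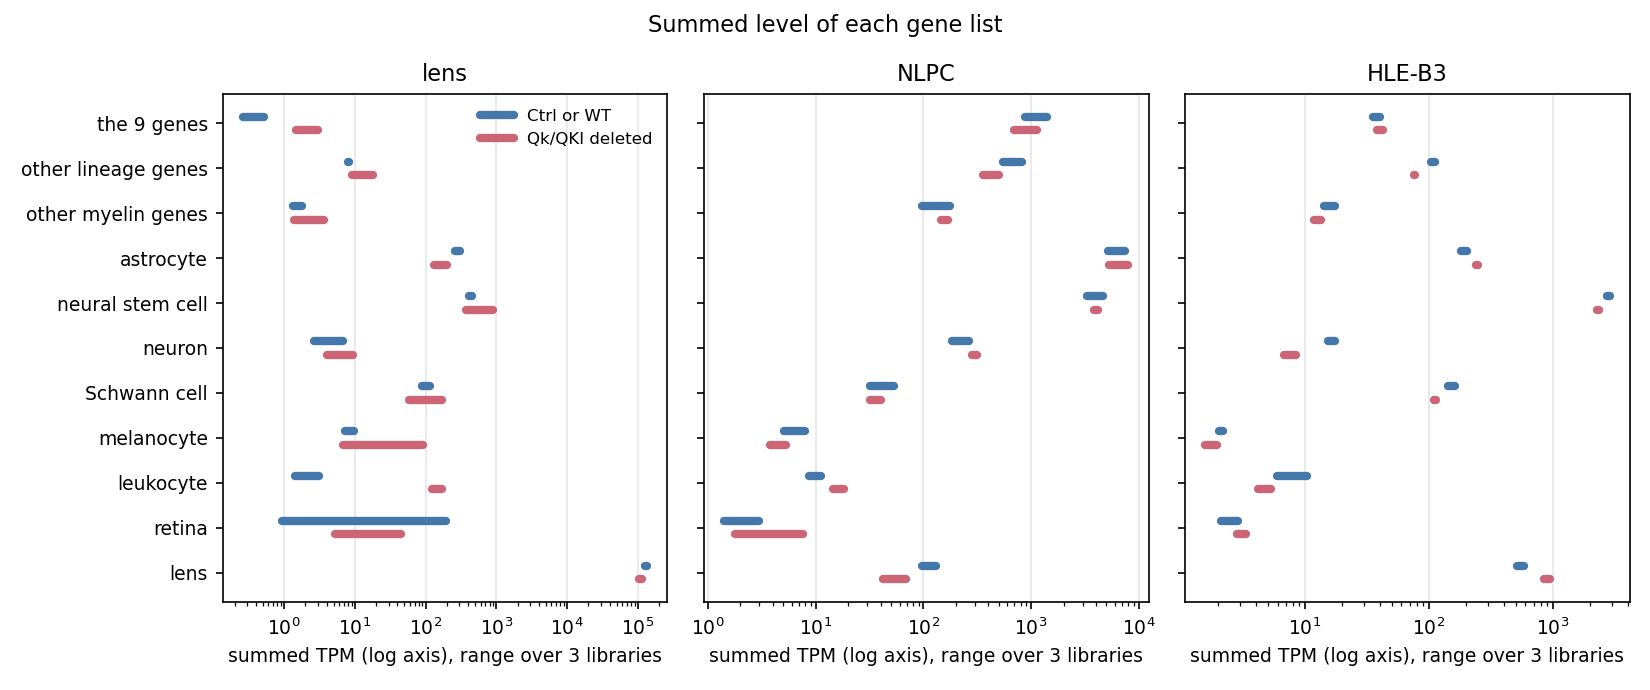
Range over 3 libraries of the summed TPM (log axis, which differs between panels) of the 9 genes and of each list of marker genes, in Ctrl or WT (blue) and in libraries labelled as deleted (red). In the lens the leukocyte genes separate most between the groups (1.41 to 3.16 against 122 to 170 TPM), and in NLPCs the astrocyte list is the highest.

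As a description of likeness with no test, the standardized log2 CPM averaged over the tested genes of the set was correlated with every other tested gene over the 6 libraries of a system, which include both groups. In the lens, where Cnp alone was tested, the 5 most similar genes were Pde2a (Pearson r = 0.991), Cnr1 (0.991), Ifih1 (0.990), Ly6e (0.990) and Kirrel3 (0.986), and 70 genes had an r over 0.95. In NLPCs, with 7 genes averaged, they were Gm20033 (0.953), Efcab11 (0.945), Avpi1 (0.943), Arhgap6 (0.943) and Gm36899 (0.933). That average mixes genes that went in different directions, such as Mobp (higher) and Cnp (lower), and genes of few counts, so it need not follow any of the 7. These 5 similar genes had log2 changes of −0.165 to −0.05 after deletion. In HLE-B3 cells, with MBP, CNP and CLDN11 averaged, they were RGS11 (0.991), UBE2R2 (0.990), UBE2E2 (0.987), KAZN (0.986) and NELFB (0.982).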

How the data were processed

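RNA-seq of 18 libraries was used. The authors aligned stranded paired-end reads to mm10 or hg19 with STAR 2.6.1b and counted them per gene with HTSeq 0.11.0. The submitters' processing notes also name HISAT2 2.0.4 and featureCounts without a role. What was deposited is a table of unnormalized read counts for each system, of which 0 columns were left out. Groups come from the deposited labels.

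Genes were filtered with filterByExpr (minimum count 10, minimum total 15), scaled by TMM and compared within each system by the two-sided quasi-likelihood test of edgeR 4.0.16 (limma 3.58.1, R 4.3.3), with Benjamini-Hochberg adjustment over all genes tested and a threshold of 0.05. Lens and NLPC were joined for the 44088 genes named in both mouse tables to test the interaction of deletion and system. CPM used TMM library sizes. TPM used merged exon lengths (GENCODE), known for genes holding 97.4 to 99.9% of counts, and no TMM factors. The floor was 3 counts per library. An exact permutation test of 3 against 3 cannot give a p under 0.10. The biological coefficient of variation was 0.26 in lens, 0.411 in NLPC and 0.168 in HLE-B3 libraries, and intervals on counts cover counting error only.

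The 9 genes and all marker lists were chosen with earlier results of these data known. Named are all 9 genes, the called genes of the other lineage and myelin lists (at most 10 per system), up to 3 genes of each marker list and the 5 genes of highest likeness. List totals include some genes whose own values are not given here. Other genes are named where they overlap one of these or mark a library that stood apart. The scripts were tested on simulated data.

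Libraries with the same replicate number deviated together in the lens (r = 0.233, 0.133 and 0.523) and in NLPCs (r = 0.123, 0.32 and 0.145), across genes and from the data alone, so the replicate number was also used as a block. In HLE-B3 cells they did not (0.0613, 0.0566 and −0.0495). Pairs with different numbers reached r = 0.279 for lens Ctrl 2 with Qk-iCKO 1 and 0.232 for NLPC WT 1 with Qk-/- 3. The other pairs with different numbers ranged from −0.392 to 0.0615 in the lens and from −0.303 to 0.12 in NLPCs. A pairing by replicate number is thus not certain from these values. Alternatives were RLE factors, total counts alone, TMM without crystallins in the lens, testing any gene with a count of 1 or more, at least 10 counts in every library, DESeq2 1.42.0, the block and each library left out. Leaving out lens Qk-iCKO 1 and Ctrl 2 together was chosen after seeing the data.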

Additional observations from a re-analysis of the deposited data

Results flagged for a closer look

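The change of Cnp after deletion differed between the mouse systems by a test of the difference itself. Cnp was higher in Qk-iCKO lenses (log2 change 1.89) and lower in NLPC libraries labelled Qk-/- (−0.70), and the change in NLPCs less that in the lens was −2.49 (edgeR's interaction test, adjusted p = 0.0023). All 3 Qk-iCKO lenses lay above all 3 Ctrl lenses, and all 3 Qk-/- libraries lay below all 3 WT libraries. Of genes with at least 1 count, 13% were separated in that direction in the lens and 10% in NLPCs. The lens values rest on 5 to 43 counts and the NLPC values on 2350 to 12901. Over 17 alternatives the difference ranged from −2.81 to −2.24, with an adjusted p of 1.49e-07 to 0.00979. Leukocyte genes in the lens and some astrocyte genes in NLPCs, the latter in both directions, differed between the same groups. Their part in the difference was not tested.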

How the results depend on the processing

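With the replicate number as a block, the calls among the 9 genes were the same (1 in the lens, 2 in NLPCs and 1 in HLE-B3 cells), and 1982, 2018 and 5901 of all genes were called in place of 1496, 2179 and 6341. The block changed no call described here among the other lineage and myelin genes. Calls in the other marker lists, of DNAJC7 and of Qk or QKI were not followed under it. RLE factors, TMM without crystallins and DESeq2 changed no call among the 9 genes, but DESeq2 called 3841 of all NLPC genes. With total counts alone, 884 of all lens genes and 0 of the 9 genes in HLE-B3 cells were called. Testing every gene with at least 1 count gave 3 of the 9 in the lens (Cldn11, Cnp and Mobp), 2 in HLE-B3 cells (CNP and MOBP) and 2521 of all lens genes. Requiring 10 counts in every library gave 0 of the 9 and 0 of the other lineage and myelin genes in the lens and 1 of the 9 (Cnp) in NLPCs, since the genes with low counts were not tested. Without lens Qk-iCKO 1 and Ctrl 2, chosen after seeing the data, 0 of the 9, 0 of the other lineage and myelin genes and 741 of all lens genes were called.

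With each library left out in turn, calls ranged from 0 to 1 of the 9, 0 to 2 of the other lineage and myelin genes and 581 to 1709 of all genes in the lens, from 0 to 2, 4 to 9 and 681 to 3797 in NLPCs, and from 1 to 2 of the 9 in HLE-B3 cells. The log2 change of Mbp in NLPCs ranged from −0.30 without Qk-/- 2, and −0.06 without WT 1, to 1.22. That of Sox10 in NLPCs ranged from −1.02 to 0.12 (without WT 3) and that of CLDN11 in HLE-B3 cells from −1.35 to 0.11 (without WT 2). The change in NLPCs less that in the lens ranged from −1.21 to 0.39 for Mbp (highest without NLPC WT 2) and from −4.21 (without lens Ctrl 2), with −0.92 without Qk-/- 2, to 2.21 for Mobp. None of these passed the threshold, and the cause was not tested. In the lens, 8 of the 9 genes had too few counts to be tested, so that this depth says little about a change in them.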
